A study of Homo sapiens with 2 samples.

Results

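The 10 genes described here encode the NF-kB transcription factor subunits (NFKB1, NFKB2, REL, RELA and RELB) and proteins that hold NF-kB signalling in check (NFKBIA, NFKBIB, NFKBIE, TNFAIP3 and BCL3). They were taken as a named gene family, by symbol, from a table of 63677 genes, and all 10 had reads in both libraries. The cells were HGC-27, an established human gastric carcinoma line, transfected with the pcDNA3.1 vector alone (control, 1 library) or with pcDNA3.1-lncPSCA, which carries the long non-coding RNA lncPSCA (lncPSCA, 1 library). Both cultures received the transfection reagent INTERFERin and were collected 48 hours later, so both carry plasmid and reagent. Each group was a single library with no replicate: every value below compares 2 libraries, and no test between the conditions could be made.

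NF-kB proteins form dimers that are kept in the cytoplasm by IkB proteins until the IkB kinase (IKK) complex marks the IkB proteins for destruction. The freed dimers then switch on inflammatory, survival and antiviral genes. Among their targets are several of their own subunits and inhibitors, which gives the pathway fast negative feedback. TNFAIP3, also called A20, removes ubiquitin chains from signalling complexes upstream of IKK, and is among the best known of these feedback genes.

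The 10 genes fell into 9 that differed by less than 2-fold between the libraries and 1, TNFAIP3, that was several-fold more abundant with lncPSCA. "Higher" or "lower" below means 3 things together. The mean level reached 1 CPM (reads scaled to the size of their library), the log2 ratio with a pseudocount of 1 corresponded to 2-fold or more, and the whole 95% counting interval of the fold was past 1.5-fold. By this rule 1 of the 10 genes was higher in the lncPSCA library, against 3.02% of the 15440 genes that reached 1 CPM, and none was lower, against 0.596%. The median log2 ratio (lncPSCA over control) of the 10 genes was 0.06, against -0.02 over all measured genes. The summed level of the 10 genes was 399 and 411 CPM in the control and lncPSCA libraries. Without TNFAIP3 the other 9 summed to 395 and 396 CPM.

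The stretches of DNA that bear most directly on feedback are the kB motifs, the sequences that NF-kB dimers bind, just before the start sites of these genes. They are shown because the family is known for regulating itself. The following stretches were read from RefSeq promoter entries on GRCh38.p14, 5′ to 3′ on the strand of the gene, with matches to the kB consensus in capitals. The coordinates in the lines below are those of the printed bases.
TNFAIP3, chr6:137867188-137867217, plus strand: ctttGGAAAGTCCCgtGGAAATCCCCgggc
NFKBIA, chr14:35404811-35404840, minus strand: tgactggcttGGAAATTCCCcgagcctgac
REL, chr2:60881518-60881546, plus strand: gtcagccgcGGGAAATTCCCctcccgcca
NFKB1, chr4:102501300-102501329, plus strand: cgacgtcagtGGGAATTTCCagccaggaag
NFKB2, the third listed start, chr10:102395674-102395703, plus strand: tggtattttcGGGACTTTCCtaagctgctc
NFKBIB, the second listed start, chr19:38899932-38899960, plus strand: ggcgtggtgGGGAATTTCCCgcagggcgg

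RefSeq promoter entries were matched for 8 of the 10 genes (13 listed starts), and not for RELB and NFKBIE. In the 250 bases before a start, searched on both strands, 6 of these 8 genes held the kB consensus: NFKB1, NFKB2, REL, NFKBIA, NFKBIB and TNFAIP3. RELA and BCL3 had no match in this window. Over all 27305 genes of the table, 6.28% held the consensus before at least 1 start. The same 6 genes held the narrower motif GGGANTTTCC, all of whose matches are also matches to the consensus, and 0.645% of all genes held it. TNFAIP3 had a pair of consensus matches close together, at bases -67 to -58 and -55 to -46 from its start. NFKBIA had its match at bases -81 to -72. NFKB2 held matches before the second and the third of its 3 listed starts. The interferon-type motif GAAANNGAAA was found for 1 member, RELA, at bases -237 to -228 of 1 of its starts, and for 3.71% of all genes. In GENCODE release 29 (GRCh38), the printed stretch of NFKBIA lay outside the exons of its gene, and those of the other 5 overlapped an exon of their own gene. These matches are descriptions of sequence and no binding was measured. The 6 genes with a consensus match had log2 ratios from -0.38 (NFKBIB) to 1.82 (TNFAIP3), so genes with the same motif lay at both ends of the family's range.

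**Figure D1:**
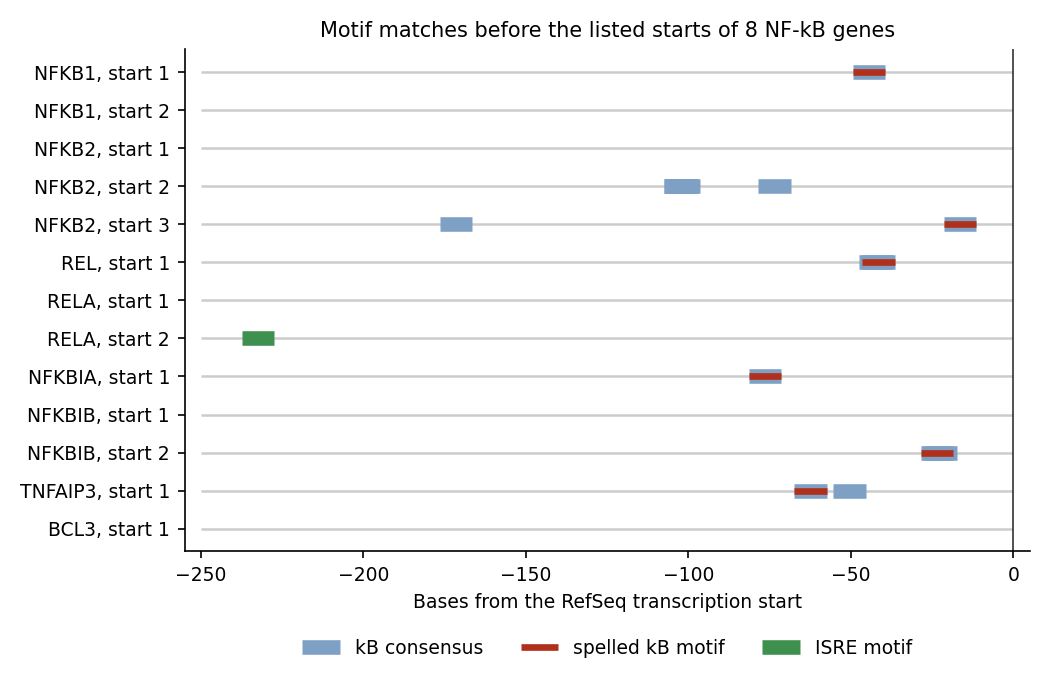
Motif matches in the 250 bases before each listed RefSeq start of 8 NF-kB genes; the x axis is the distance in bases from the start, and starts are numbered by genome coordinate. Blue bars are matches to the kB consensus, red lines the narrower kB motif and the green bar the interferon-type motif. TNFAIP3 has 2 consensus matches side by side, and RELA and BCL3 have no kB match.

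TNFAIP3 was the feedback gene that stood apart. It was counted 87 times in control and 344 times in lncPSCA (4.12 and 14.6 CPM). The fold was 3.55, with a counting interval from 2.80 to 4.54, and 138 of the measured genes (0.894%) had a larger log2 ratio. Of 12 interferon-stimulated reference genes 12 were higher, with log2 ratios from 1.77 (MX1, close to the 1.82 of TNFAIP3) to 8.33 (MX2) and a median of 5.08, and their summed level went from 266 to 6757 CPM. These reference genes were chosen with earlier results of these data known, and 3.02% of all measured genes were higher. The part of the reference genes in the TNFAIP3 value was not tested. The spread between cultures was not measured. If the coefficient of variation between cultures were 0.2, the interval of TNFAIP3 would run from 1.94 to 6.51. At 0.4 it would run from 1.14 to 11.1 and no longer meet the rule. An antisense gene shares 95 of the 5051 exon bases of TNFAIP3 in GENCODE release 29; it had 2 and 10 reads, and whether the counting used strand is not stated in the sources used here.

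**Figure D2:**
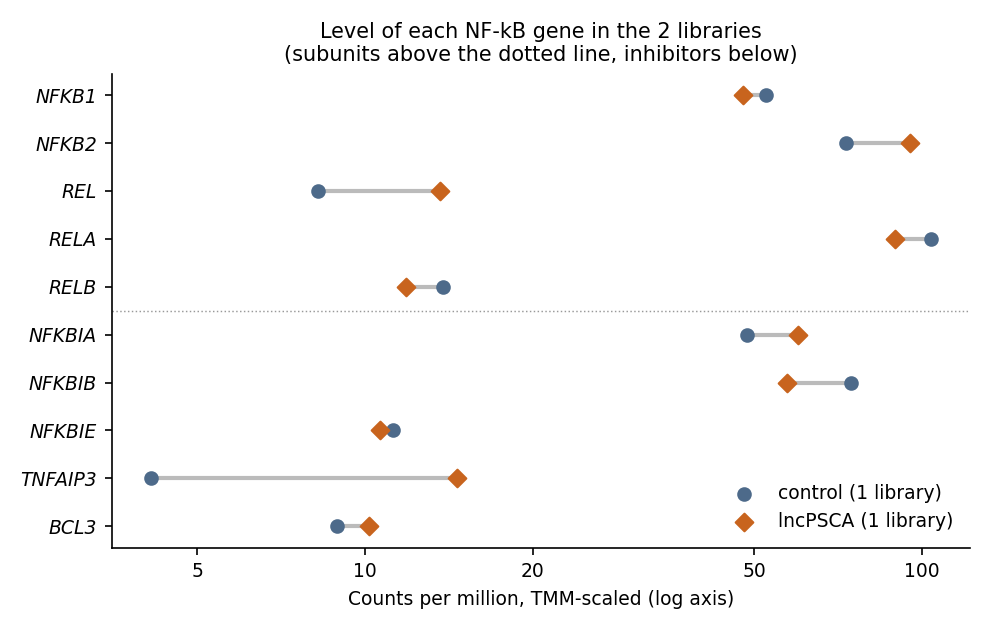
Level of the 10 NF-kB genes in the control library (circles) and the lncPSCA library (diamonds), in TMM-scaled CPM on a log axis, with subunits above the dotted line and inhibitors below it. TNFAIP3 shows the widest gap, from 4.12 to 14.6 CPM.

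The IkB proteins, which bind NF-kB dimers and mask their nuclear entry signals, did not move together. NFKBIA, which encodes IkB-alpha and is the classical rapid feedback target, had 1022 reads in control and 1409 in lncPSCA (48.4 and 59.9 CPM). Its fold was 1.24 (1.14 to 1.34), above counting error but below the 2-fold limit. NFKBIB, which encodes IkB-beta, went the other way, with 1572 and 1346 reads (74.5 and 57.3 CPM). Its fold was 0.768 (0.714 to 0.827). NFKBIE, which encodes IkB-epsilon, had 237 and 250 reads (11.2 and 10.6 CPM), a fold of 0.947 (0.789 to 1.14) whose interval includes 1. Summed over the 3 genes, the level was 134 and 128 CPM. The fold of this sum was 0.953 (0.905 to 1.003). NFKBIB shares 40 of its 2324 exon bases with SIRT2 on the opposite strand, which had 613 and 600 reads.

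BCL3, an atypical nuclear IkB protein that partners with homodimers of the short NF-kB subunits and can activate as well as repress, had 188 and 239 reads (8.91 and 10.2 CPM). Its fold of 1.14 had a counting interval from 0.939 to 1.39, so the libraries could not be told apart at this depth. TNFAIP3 and NFKBIA, both classical feedback genes with a kB motif before their start, thus had folds of 3.55 and 1.24, and their counting intervals did not overlap. With an assumed coefficient of variation of 0.2 between cultures they would overlap, at 1.94 to 6.51 and 0.707 to 2.17.

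**Figure D3:**
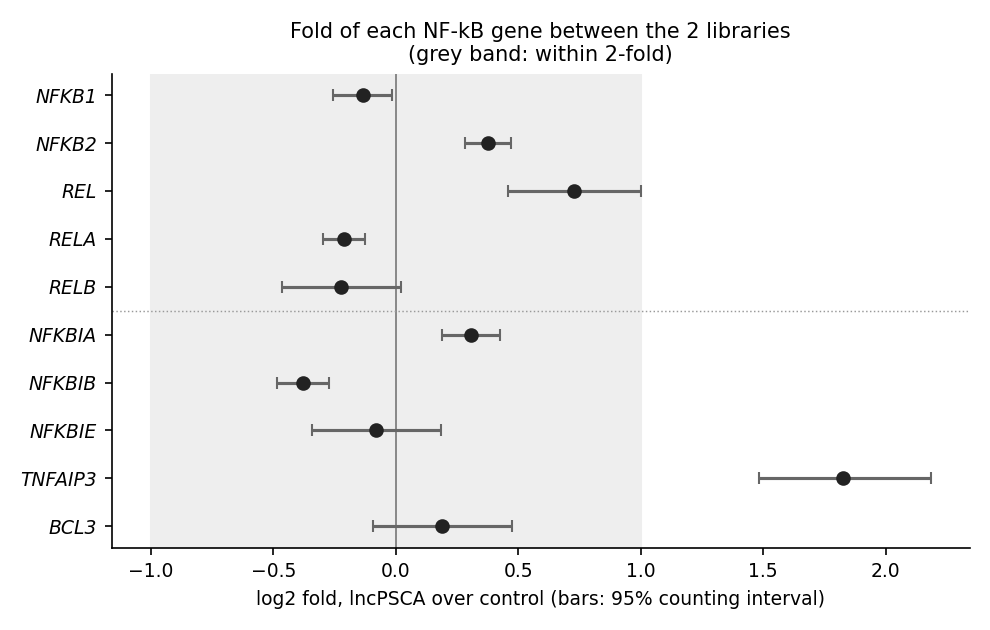
Fold of each NF-kB gene in the lncPSCA library over control, on a log2 scale, with 95% counting intervals as bars; the grey band marks differences under 2-fold. TNFAIP3 lies outside the band at a 3.55-fold difference, and the point estimates of the other 9 genes lie inside it.

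The subunits differed by smaller amounts, and in both directions. RELA, which encodes p65, the main transactivating subunit of the canonical pathway, had 2189 reads in control and 2106 in lncPSCA (104 and 89.6 CPM), a fold of 0.863 (0.813 to 0.917). NFKB1, whose precursor protein is processed to the DNA-binding partner of p65, had 1106 and 1122 reads (52.4 and 47.7 CPM). Its fold was 0.910 (0.837 to 0.990). The canonical pair RELA and NFKB1 was thus slightly less abundant in the lncPSCA library, by an amount that depends on the scaling. With total counts the interval of NFKB1 was 0.873 to 1.03 and includes 1, and after centring along mean expression the log2 ratios were -0.06 for NFKB1 and -0.09 for RELA.

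NFKB2, whose precursor is processed in the non-canonical pathway and which is itself a known NF-kB target, had 1545 reads in control and 2236 in lncPSCA (73.2 and 95.1 CPM). The fold was 1.30 (1.22 to 1.39). RELB, its usual dimer partner, had 291 and 278 reads (13.8 and 11.8 CPM), a fold of 0.857 (0.725 to 1.01) whose interval includes 1 (under upper-quartile scaling it ended at 0.997). The counting intervals of these partners did not overlap: NFKB2 lay above 1, and RELB did not. With an assumed coefficient of variation of 0.2 between cultures they would overlap. NFKB2 would then run from 0.743 to 2.27 and RELB from 0.480 to 1.53.

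REL, which encodes c-Rel, a subunit best known from lymphocytes, had 174 reads in control and 321 in lncPSCA (8.25 and 13.7 CPM). The fold of 1.66 (1.37 to 2.003) was the second largest of the family, and REL fell short of the rule both in its log2 ratio of 0.72 and in its interval, which starts below 1.5. Transcript length moved with the library ratio: the 1500 measured genes with the longest transcripts, among them REL (longest transcript 11255 bases), had a median log2 ratio of 0.25, and the tenth of genes that holds NFKBIA (1558 bases) had one of -0.15. After centring along length the log2 ratio of REL was 0.43 and that of NFKBIA also 0.43. A non-coding gene on the same strand shares 5702 of the 13170 exon bases of REL and had no reads in either library; how reads over the shared bases were assigned is not given, so the level of REL is uncertain.

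In all, the counting interval of the fold lay wholly above 1 for 4 of the 10 genes (NFKB2, REL, NFKBIA and TNFAIP3) and wholly below 1 for 3 (NFKB1, RELA and NFKBIB). The same held for 27.0% and 32.1% of all measured genes, so small differences of this kind were common between these libraries. When a coefficient of variation of 0.2 between cultures was assumed, TNFAIP3 was the only member whose interval did not include 1. For example, that of REL ran from 0.922 to 2.98 and that of NFKB2 from 0.743 to 2.27.

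To compare genes with each other, CPM was divided by the length of the longest GENCODE transcript in kilobases. In the control library the length-scaled level was 33.9 CPM per kilobase for NFKBIB, 32.6 for RELA and 31.1 for NFKBIA, and neighbours among these 3 could not be told apart by their 95% Poisson intervals. NFKB2 followed at 21.4, NFKB1 at 12.8 and RELB at 6.01 CPM per kilobase, each distinct from its neighbours. BCL3 (4.37) and NFKBIE (4.35) overlapped, and TNFAIP3 (0.871) and REL (0.733) overlapped at the bottom of the order. The place of REL is uncertain in both libraries. Its full length was used, and whether reads over the 5702 exon bases it shares with another gene were counted is not given.

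In the lncPSCA library NFKBIA led the length-scaled order at 38.5 CPM per kilobase, above RELA at 28.1. NFKB2 (27.8) and NFKBIB (26.0) came next, and RELA, NFKB2 and NFKBIB overlapped from neighbour to neighbour. NFKB1 followed at 11.7, and RELB (5.15), BCL3 (4.99) and NFKBIE (4.12) overlapped from neighbour to neighbour. TNFAIP3 reached 3.09 CPM per kilobase, distinct from NFKBIE above it and from REL (1.21) below it. By point estimate, the order changed at the top. NFKBIB went from rank 1 to rank 4, NFKBIA from 3 to 1 and NFKB2 from 4 to 3. Ranks of neighbours whose intervals overlapped are not resolved. The other 7 genes kept their ranks, but that of REL is uncertain.

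**Figure D4:**
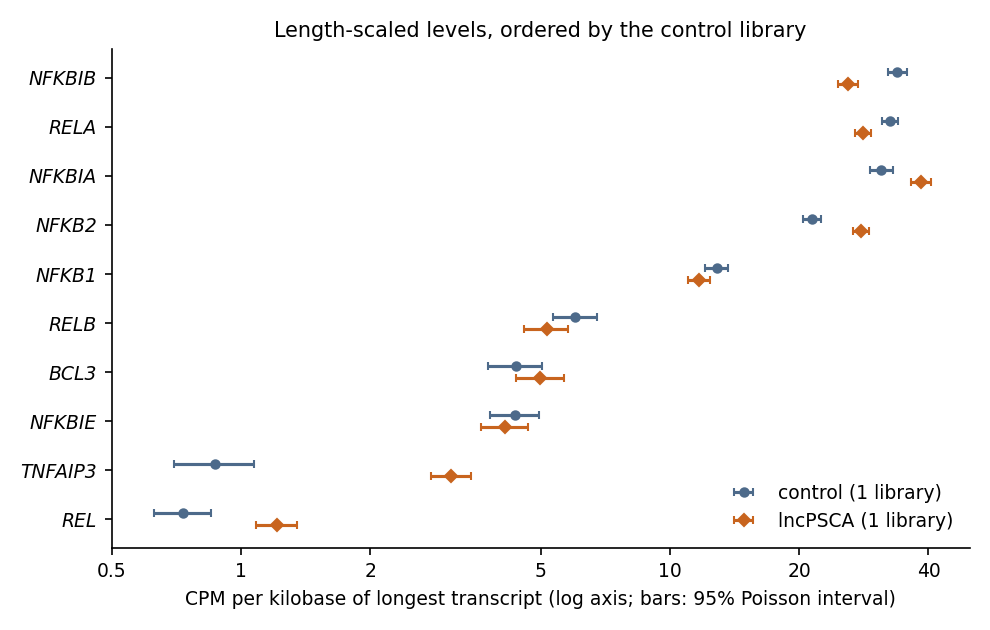
Length-scaled level of each NF-kB gene in CPM per kilobase of the longest transcript, on a log axis, ordered by the control library; bars are 95% Poisson intervals of 1 library each and cover counting error only. TNFAIP3 goes from 0.871 to 3.09 while staying below NFKBIE in both libraries.

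Among the 5 subunits, RELA made up 44.3% of the length-scaled level in control and 38.01% in lncPSCA, NFKB2 29.1% and 37.6%, NFKB1 17.4% and 15.8%, RELB 8.17% and 6.96%, and REL 0.995% and 1.64%. RELA therefore led clearly in control and stood level with NFKB2 in lncPSCA. The share of REL is uncertain, as its level is. The ratio of the length-scaled level of NFKBIA to that of RELA, the dimer subunit it restrains, was 0.954 in control and 1.37 in lncPSCA. That of TNFAIP3 to RELA was 0.0267 and 0.110.

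Genes that act before and after the 10 members were taken from 5 lists. Of 105 entries, 104 had a row in the table (SOD2 was not matched) and 72 reached 1 CPM. By the same rule 6 of these 72 were higher and none was lower, beside 3.02% and 0.596% of all measured genes. The median log2 ratio was 0.19; 6 of the 72 reached the minimum with less than 1 CPM in control.

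Of 16 receptors 7 were measured, 1 was higher and none lower. The median log2 ratio was 0.32, but the summed level of all 16 went the other way, with 240 and 213 CPM (fold 0.888, 0.854 to 0.924). The most abundant, TNFRSF12A, the receptor for the cytokine TWEAK, was at 116 and 73.5 CPM (0.632-fold, 0.594 to 0.673). The higher gene was TLR3, an endosomal receptor for double-stranded RNA and a known interferon-induced gene, with 38 and 250 reads (1.80 and 10.6 CPM), a fold of 5.90 (4.19 to 8.54). The signalling TNF receptor gene TNFRSF1A was at 85.1 and 81.8 CPM; it and TNFRSF12A were named after their values were seen. These are transcript levels only, and which receptors were signalling was not tested.

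All 23 adaptors and ubiquitin ligases were measured, 1 was higher and the median was 0.17. RBCK1, also called HOIL-1, a subunit of the linear ubiquitin chain assembly complex, had 1713 and 3863 reads (81.2 and 164 CPM), a fold of 2.02 (1.91 to 2.14). It lay at the 2-fold limit, and upper-quartile scaling or an assumed coefficient of variation of 0.2 took it below the rule. The other subunits of that complex, RNF31 at 1.53-fold (1.40 to 1.67) and SHARPIN at 1.05-fold (0.968 to 1.14), did not meet it. MYD88, the adaptor of most Toll-like receptors, was at 12.5 and 24.5 CPM (1.97-fold, 1.70 to 2.29). UBE2N, a ubiquitin-conjugating enzyme that builds the signalling chains, went the other way at 91.2 and 60.6 CPM (0.664-fold, 0.620 to 0.712). UBE2N shares 2474 of its 6269 exon bases with NUDT4 on the opposite strand. RNF31 shares 1732 of its 4982 with a gene on the same strand and 216 with PSME2 on the opposite strand. How reads over these shared bases were counted is not given. RNF31, SHARPIN, MYD88 and UBE2N were named after their values were seen.

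None of the 10 measured IKK kinases and activators met the rule, and their median was 0.03. CHUK, the IKK-alpha kinase, was at 62.1 CPM in both libraries, and TAB1, an activator of the kinase TAK1, was at 58.0 and 58.4 CPM. IKBKG and IKBKE had no reads under the current identifiers matched to these symbols. On hg19 these genes may be listed under other identifiers, which were not used here, so the zeros are not taken as measurements.

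Of 18 other negative regulators 15 were measured and 1 was higher, with a median of -0.06. This was NLRC5, an NLR protein that also drives MHC class I genes and is known to be interferon-induced, with 409 and 3846 reads (19.4 and 164 CPM), a fold of 8.44 (7.62 to 9.37). A20's binding partners TNIP1 (64.3 and 70.3 CPM) and TAX1BP1 (101 and 109 CPM) and the deubiquitinase CYLD (46.1 and 55.8 CPM) differed by less than 1.5-fold. N4BP1, an RNase that restrains NF-kB signalling, was at 1.76-fold (1.64 to 1.88), and TNIP3, another A20 partner that stayed under 1 CPM, had 5 and 16 reads (2.87-fold, 1.01 to 10.0). These 5 genes were named after their values were seen. OTUD7B had no reads under its matched identifier, with the same limit as IKBKG.

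Of 35 NF-kB target genes outside the family with a row, 17 were measured, of which 3 were higher and none lower. Their median log2 ratio was 0.61, but 4 of the 17, TNF among them, were under 1 CPM in control and reached the minimum through the lncPSCA library. With a minimum of 5 CPM, 2 were higher (IRF1 and VCAM1). Over all 35 genes, whatever their level, the levels summed to 272 and 395 CPM. Most of that difference lay in VCAM1 (21.9 and 79.7 CPM) and IRF1 (21.8 and 60.8 CPM). BCL2L1, the most abundant target by mean level, went the other way at 76.4 and 57.1 CPM (0.748-fold, 0.695 to 0.804). Of the 17 measured, 14 had a log2 ratio above 0 and 3 below. VCAM1, an adhesion molecule, had 463 and 1874 reads (3.63-fold, 3.28 to 4.03). IRF1, a transcription factor that interferon also induces, had 460 and 1430 reads (2.79-fold, 2.51 to 3.11). TNF, the cytokine, had only 5 and 43 reads (7.72-fold, 3.06 to 25.0). BCL2L1 shares 1424 of its 3314 exon bases with ABALON on the opposite strand. IRF1 shares 1716 of its 7799 with C5orf56, also on the opposite strand. How reads over these shared bases were counted is not given. Targets with little difference included CCL2 (20.1 and 19.9 CPM) and GADD45B (17.1 and 17.5 CPM). IER3 was at 16.9 and 13.7 CPM (0.809-fold, 0.694 to 0.944), with its counting interval wholly below 1. Of the 18 targets below the minimum, several had more reads with lncPSCA: the chemokine genes CCL20 (0 and 10 reads), CXCL3 (0 and 7) and CXCL2 (0 and 4), the cytokine gene IL6 (4 and 23) and PTGS2 (9 and 36), which encodes the prostaglandin synthase COX-2. Without a CPM minimum, CCL20, IL6 and PTGS2 met the rule in addition. The chemokine gene CXCL8 had 1 and 0 reads, and CXCL1 none in either library. The targets other than VCAM1, IRF1 and TNF were named after their values were seen.

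**Figure D5:**
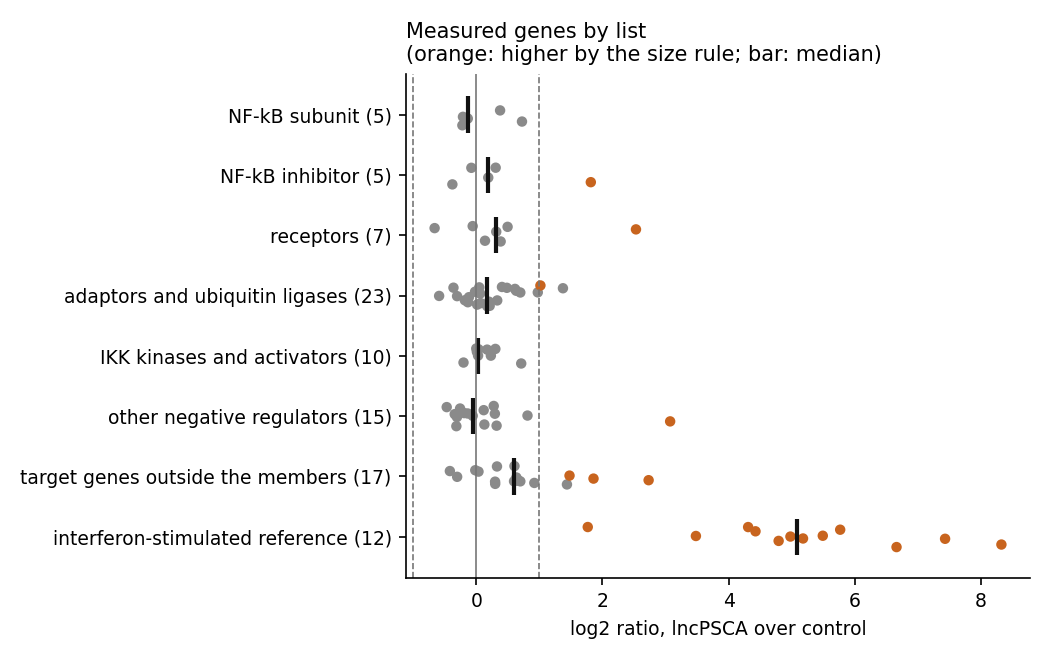
Log2 ratio of lncPSCA over control for the measured genes of each list, with the number of genes in brackets; points are genes, bars list medians, orange points genes higher by the size rule, and dashed lines mark 2-fold. Among the 2 family lists only TNFAIP3 is orange, and all 12 interferon-stimulated reference genes are.

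Total counts were 21552098 (control) and 23016646 (lncPSCA). No row was matched to lncPSCA itself, and PSCA, the gene that shares its name, had 22 and 28699 reads. The labelled gastric carcinoma line had few reads for epithelial and gastric markers. The 5 epithelial genes together had 104 and 85 reads. Of these, KRT8 had 66 and 58, CDH1 26 and 20, EPCAM 7 in each, KRT18 4 and 0, and KRT19 1 and 0. The 8 gastric lineage genes together had 7 and 5 reads, with 5 of the 8 at 0. Mesenchymal genes were mostly abundant (VIM at 2601 and 2594 CPM, COL1A1 at 1112 and 1042 CPM), with COL1A2 the lowest at 12.3 and 16.8 CPM. Leukocytes are a rich source of NF-kB transcripts, and their 6 markers summed to 111 and 109 reads. Most of these were from ITGAM (37 and 21), CD68 (34 and 58) and CD14 (29 and 23). PTPRC had 9 and 4 reads and CD3E 0.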

How the data were processed

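The authors deposited 1 table of raw read counts per Ensembl gene with a column for each library. The submitters' processing notes list TopHat2, HTSeq and hg19; for versions, strand setting, read filters and annotation release the sources used here give nothing. The members and gene lists were chosen with earlier results of these data known.

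Symbols were assigned by gene identifier (52181 of 63677 rows matched). Library sizes were scaled by TMM (edgeR 4.0.16), with factors of 0.979 (control) and 1.02 (lncPSCA). Log2 ratios used a pseudocount of 1 in proportion to library size, so low genes are understated; folds are CPM ratios with exact Clopper-Pearson 95% intervals (scipy 1.17.1). Intervals cover counting error only, and no molecular identifiers are mentioned, so reads may not be independent molecules. The size rule was tested on simulated data with counting noise only, so that test does not cover the spread between cultures. Transcript lengths and overlaps came from GENCODE release 29 and promoters from RefSeq (GRCh38.p14), matched by identifier or symbol to tables made on hg19; no coordinates were converted. From each pathway list, up to 6 genes meeting the rule were named, or its 2 most abundant where none did. Alternatives changed the scaling (DESeq2 1.42.0 among them), CPM minimum, pseudocount, fold limit, assumed spread and centring.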

Additional observations from a re-analysis of the deposited data

How the results depend on the processing

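TNFAIP3 met the rule under 11 of 12 alternatives, with log2 ratios from 1.73 to 1.88, and no member changed sign under any of the 12. Changes to the CPM minimum, fold limit or assumed spread left these log2 ratios as they were. Only the scaling, pseudocount and centring alternatives could change a sign or the median. Under those the median of the 10 members ran from 0.02 to 0.14. It stayed within the averaged counting bounds of its middle genes, NFKBIE and BCL3. With a 1.5-fold limit and an interval beyond 1, 2 members were higher (REL in addition), as were 1 IKK gene (TAB2), 6 adaptors and ligases, 2 other negative regulators and 8 targets. TNFRSF12A (0.632-fold) and UBE2N (0.664-fold) were lower under this limit. Over all 15440 measured genes, 1624 were higher and 835 lower under the same limit. With an assumed coefficient of variation of 0.4, 0 members, 0 adaptors and 1 target (TNF) were higher, and with 0.2 again 0 adaptors. Of all 15440 measured genes, 102 were higher with 0.4 and 210 with 0.2. Higher adaptors numbered 3 with total counts, 0 under upper-quartile scaling and 2 after centring along length. Over all measured genes, 548, 434 and 430 were higher under these settings, in the same order. The adaptors that moved lay near a limit of the rule. RBCK1 and MYD88 had main log2 ratios of 1.02 and 0.97, and the main interval of IRAK1 started at 1.47. Without a CPM minimum 6 targets were higher, as CCL20, IL6 and PTGS2, with means under 1 CPM, then entered. Over all genes 612 were. No paired analysis was possible because each group has 1 library. Depth limits BCL3, NFKBIE and RELB, whose intervals include 1.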

Other observations

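Among measured genes with a RefSeq promoter entry, the family included, 72 held the narrower kB motif GGGANTTTCC in the 250 bases before a start. Of these, 6 (8.33%) were higher in the lncPSCA library and none was lower, against 306 of 10599 (2.89%) higher among genes without it. The 6 were TNFAIP3, the RNA sensors RIGI and IFIH1, the antiviral enzyme gene OAS3, the peptide transporter gene TAP1, and NHS; they are named because of their values, and 6 of the 72 genes are members of the family. OAS3 is also 1 of the 12 interferon-stimulated reference genes (log2 ratio 5.50). How many of the 72 also held the interferon-type motif was not counted. The median log2 ratio of the 72 was 0.05, against -0.03 for genes without the motif. With the broader kB consensus, 32 of 844 genes (3.79%) were higher, against 2.85% of those without a match. With the interferon-type motif GAAANNGAAA, 48 of 350 genes (13.7%) were higher, against 2.56% of those without it. These are descriptions of 2 libraries, and no difference between the shares was tested.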
